A study of Mus musculus with 6 samples.

Results

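The 10 genes described here are T cell checkpoint and exhaustion genes. They are 5 inhibitory receptors (Pdcd1, Lag3, Havcr2, Tigit and Cd96), the regulator Tox, and 4 ligands carried by antigen-presenting and tissue cells (Cd274, Pdcd1lg2, Cd80 and Cd86). They were taken from the table by symbol, and all 10 were found among the 35976 rows of the count table. Brown adipose tissue (BAT) was sequenced from 3 WT mice and 3 sST2-KO littermates, all male, 10 weeks old and on a C57BL/6J background. The BAT of every mouse, WT included, had been denervated by surgery, and all were exposed to 10 °C for 8 h before the tissue was taken. In sST2-KO mice, an intron of Il1rl1 had been deleted in the germline with CRISPR/Cas9. The deletion removes the soluble decoy receptor sST2 and keeps the membrane receptor ST2L, which binds interleukin-33. It is present in every cell of the body, so the comparison does not tell in which cells sST2 was lost. Counts per gene combine both forms of Il1rl1 and do not check the genotype, and they ran from 6 to 19 in the WT and from 55 to 142 in the sST2-KO libraries.

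Checkpoint receptors are held on activated T cells and natural killer (NK) cells, where they weaken signals from the antigen receptor. PD-1, encoded by Pdcd1, binds PD-L1 (Cd274) and PD-L2 (Pdcd1lg2), whereas CD80 and CD86 bind the activating receptor CD28 and its inhibitory competitor CTLA-4. T cells that meet antigen for a long time can enter exhaustion, a state of lowered function with sustained inhibitory receptors and the nuclear factor TOX. In adipose tissue, T cells, NK cells and macrophages are found among the adipocytes, and the regulatory T cells there carry ST2L.

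The members lie on 6 chromosomes of GRCm39. Cd274 (chr19:29344529-29365495) and Pdcd1lg2 (chr19:29388319-29448882) are neighbors on the plus strand, separated by 22823 bases. Cd86 (chr16:36424044-36486443, minus strand), Cd80 (chr16:38275923-38316697, plus strand), Tigit (chr16:43469100-43484509, minus strand) and Cd96 (chr16:45856020-45940614, minus strand) share chromosome 16. Pdcd1 is on chromosome 1 (chr1:93966027-93980312, minus strand), Tox on chromosome 4 (chr4:6686353-6991644, minus strand), Lag3 on chromosome 6 (chr6:124881320-124888765, minus strand) and Havcr2 on chromosome 11 (chr11:46345673-46374149, plus strand). The libraries were not strand-specific, and the exons of 3 members overlap exons on the other strand. Cd80 shares 276 exonic bases with Timmdc1, which fell by 1.07 on the log2 scale (adjusted p = 0.0304). That call was kept in 1 of the 6 fits with a library left out. Cd274 shares 219 with Plgrkt and 581 with Gm36043, neither of which passed the test, and Tox shares 403 with Gm11802, which had 1 count in all libraries together.

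Promoter sequences were available for 7 of the 10 members, all but Lag3, Tox and Cd86. They were the 250 bases before and 50 after the start site in RefSeq (GRCm38.p6). Only the 250 bases before the start were searched, on both strands. The motifs were those of factors downstream of the T cell receptor and of cytokines, and general promoter motifs. The search was made because 7 members, Lag3 and Tox among them, moved in the same direction in the comparison below. The promoters searched include those of Cd274 and Pdcd1lg2, which were not called there. The AP-1 motif TGANTCA was found in 2 of the 7 member promoters and in 6.75% of 32851 RefSeq promoters. These 2 were Havcr2 and Cd80, and the 60 bases around the Cd80 match overlap exons of Cd80 in GRCm39, past its annotated start. The core bound by NFAT, GGAAAA, was found in 2 of 7 and in 20.4%, the STAT site TTCNNNGAA in 1 of 7 and in 7.02%, and the interferon-stimulated response element, a GAAA repeat with 2 bases of any kind between, in 0 of 7 and in 2.98%. A cyclic AMP element core, TGACG, was found in 0 of 7 and in 17.8%, the TATA box TATAAA in 1 of 7 and in 12.4%, and the E box CANNTG in 4 of 7 and in 66.2%. These letters describe the windows and do not show that a factor binds there. The 4 stretches of 60 bases below hold such a match and lie before the annotated start of the gene, outside the exons of GRCm39. Each is written 5′ to 3′ along the strand of its gene, with the motif in capitals.
Havcr2: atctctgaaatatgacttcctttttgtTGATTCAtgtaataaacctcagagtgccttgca
Tigit: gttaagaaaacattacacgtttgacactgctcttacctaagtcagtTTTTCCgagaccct
Cd96: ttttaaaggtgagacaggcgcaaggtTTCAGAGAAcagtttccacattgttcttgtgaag
Pdcd1lg2: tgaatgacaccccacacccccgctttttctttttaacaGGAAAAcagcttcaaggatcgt
The motif is AP-1 in Havcr2, the NFAT core in Tigit (on the opposite strand, hence TTTTCC) and in Pdcd1lg2, and the STAT site in Cd96. It starts 200 bases before the RefSeq start of Havcr2, 14 before that of Tigit, 79 before that of Cd96 and 22 before that of Pdcd1lg2. The windows run over chr11:46345531-46345590, chr16:43484548-43484607, chr16:45940657-45940716 and chr19:29388259-29388318 in that order.

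Of the 10 members, 7 were higher in sST2-KO BAT, namely all 5 receptors, Tox and the ligand Cd80. None was called lower, Cd274 and Cd86 did not pass the test, and Pdcd1lg2 was left out of the test by the expression filter. Calls required a more than 2-fold difference with an adjusted p under 0.05 in edgeR's quasi-likelihood test, run over 14542 genes. By this rule 9.04% of all genes tested were called higher and 7.10% lower, and no member was lower at an unadjusted p under 0.05 in edgeR or DESeq2 either. Every sST2-KO value lay above every WT value in 8 of the 10 members, against 21.8% of all genes tested. Without WT replicate 3, edgeR called none of the 10 members and 58 of all genes tested, in place of 2348. Without WT replicate 2 it called 4 of the members. The median log2 fold change of the 9 members tested was 2.33, and that of all genes tested was 0.034. Libraries held 8159442 to 12874809 counts, and most members had few of them, so the values below are given as normalized CPM, counts scaled to the size of the library, with the counts behind the lowest ones.

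**Figure D1:**
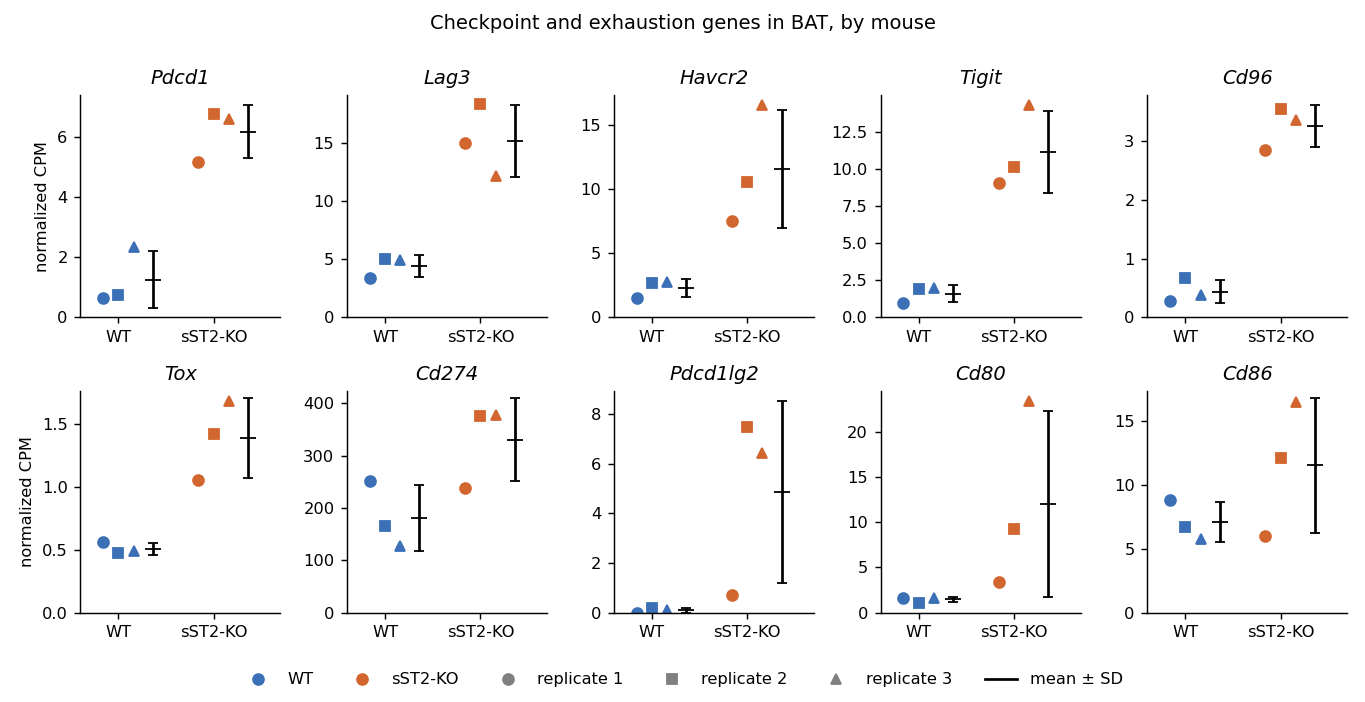
Normalized CPM of each of the 10 members in every mouse, with WT in blue, sST2-KO in orange, the replicate by its marker, and the mean with its SD (n = 3) beside the points. Each panel has its own linear axis from 0. The groups overlap in Cd274 and Cd86, and sST2-KO replicate 1 is the lowest of the sST2-KO mice in 9 of the 10 panels.

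Pdcd1, the gene of PD-1, was at 0.653, 0.754 and 2.34 CPM in the WT mice and at 5.16, 6.76 and 6.62 in the sST2-KO mice, here and below in the order of replicates 1 to 3. WT replicate 3 was the high WT mouse, with 19 counts against 7 and 8 in the others, and still lay under every sST2-KO mouse. Its log2 fold change of 2.33 (SE 0.51, adjusted p = 0.0238) kept its call in 1 of the 6 fits with a library left out, the fit without sST2-KO replicate 1.

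Lag3, a receptor for MHC class II, was at 3.36, 4.99 and 4.93 CPM in WT and at 15.0, 18.4 and 12.2 in sST2-KO mice. The highest WT value was well under the lowest sST2-KO value, which here came from replicate 3. Its log2 fold change of 1.78 (SE 0.28, adjusted p = 0.0143) was the smallest among the 5 receptors.

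Havcr2 encodes TIM-3, which is found on T cells and also on NK cells and myeloid cells. It was at 1.49, 2.64 and 2.71 CPM in WT and at 7.53, 10.6 and 16.6 in sST2-KO mice. The sST2-KO mice differed among themselves by more than the WT mice, and the groups did not overlap. The log2 fold change was 2.34 (SE 0.41, adjusted p = 0.0154).

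Tigit and Cd96 encode receptors that compete with the activating receptor CD226 for ligands of the nectin family. Tigit was at 0.933, 1.88 and 1.97 CPM in WT and at 9.06, 10.1 and 14.3 in sST2-KO mice, a log2 fold change of 2.80 (SE 0.38, adjusted p = 0.0125). Cd96 was at 0.280, 0.660 and 0.370 CPM in WT and at 2.86, 3.56 and 3.36 in sST2-KO mice, a log2 fold change of 2.85 (SE 0.42, adjusted p = 0.0136). The WT values of Cd96 rest on 3, 7 and 3 counts, and those of the sST2-KO mice on 41, 30 and 34. Neither gene overlapped between the groups. Cd226 rose by 1.91 on the log2 scale (adjusted p = 0.0192), and the ratio of Tigit to Cd226 counts overlapped between the groups, at 0.476, 1.67 and 2.29 in WT and 2.03, 1.93 and 2.64 in sST2-KO mice.

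Tox was at 0.560, 0.471 and 0.493 CPM in WT and at 1.05, 1.42 and 1.68 in sST2-KO mice, from 4 to 6 counts in each WT library and 12 to 17 in each sST2-KO library. All sST2-KO values lay above the WT values, but its call was close to the threshold, with a log2 fold change of 1.41 (SE 0.41, adjusted p = 0.0492). DESeq2 gave it an adjusted p of 0.119, and the call was lost with any of the 6 libraries left out.

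Among the ligands, Cd80, which is induced on activated antigen-presenting cells, was at 1.68, 1.13 and 1.60 CPM in WT and at 3.41, 9.26 and 23.4 in sST2-KO mice. The WT mice lay close together, whereas sST2-KO replicate 3 was far above sST2-KO replicate 1. A log2 fold change of 3.02 (SE 0.70, adjusted p = 0.0267) was fitted, which was 2.09 (adjusted p = 0.0482) without sST2-KO replicate 3. The call was lost without WT replicate 1, 2 or 3 (adjusted p = 0.0638, 0.0864 and 0.101).

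Cd86, the other ligand of CD28 and CTLA-4, was at 8.86, 6.69 and 5.79 CPM in WT and at 5.99, 12.1 and 16.5 in sST2-KO mice. The groups overlapped, since sST2-KO replicate 1 lay within the WT range, and the log2 fold change of 0.69 (SE 0.40, adjusted p = 0.252) did not pass the test. The counts of Cd80 amounted to 0.189, 0.169 and 0.277 of those of Cd86 in WT and to 0.570, 0.765 and 1.42 in sST2-KO mice. This ratio was chosen after its values were seen and is given without a test.

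Cd274, the gene of PD-L1, was the most abundant member by far, with 1029 to 3817 counts a library. It was at 251, 165 and 127 CPM in WT and at 239, 375 and 377 in sST2-KO mice. WT replicate 1 was above sST2-KO replicate 1, so the groups overlapped, and the log2 fold change of 0.87 (SE 0.32) had an adjusted p of 0.0923. DESeq2 gave an adjusted p of 0.0427 for a fold change that stayed under 2, and edgeR called the gene higher without WT replicate 1 (log2 fold change 1.17, adjusted p = 0.0487).

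Pdcd1lg2, the gene of PD-L2, had 0, 2 and 1 counts in WT and 10, 63 and 65 in sST2-KO mice, or 3 against 138 in all. The expression filter left it out of the test. The ratio of summed counts, corrected for library size, was 41.2 with an exact 95% interval of 13.8 to 202, which covers counting error only. Fitted without the filter among 24599 genes, it had a log2 fold change of 5.39 (SE 1.03, adjusted p = 0.0094), a size that depends on the handling of such low WT counts. Without WT replicate 1, 2 or 3 it was not called (adjusted p = 0.0564, 0.0646 and 0.0894). Without sST2-KO replicate 1 it passed the filter and was called higher (log2 fold change 5.92, SE 0.67, adjusted p = 0.0165). Without sST2-KO replicate 2 or 3 the filter left it out again. sST2-KO replicate 1, at 10 counts, was again far under the other sST2-KO mice.

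Per kilobase of exon, the mean level was highest for Cd274, at 44.3 CPM in WT and 80.9 in sST2-KO mice. In WT it was followed by Lag3 (1.99), Cd86 (1.85) and Tigit (1.52), and in sST2-KO mice by Tigit (10.6), Lag3 (6.85), Pdcd1 (3.14) and Cd86 (3.00). Tox, with a long transcript, was among the lowest per kilobase, at 0.0656 in WT and 0.178 in sST2-KO mice, and Pdcd1lg2 was at 0.0455 and 2.13.

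**Figure D2:**
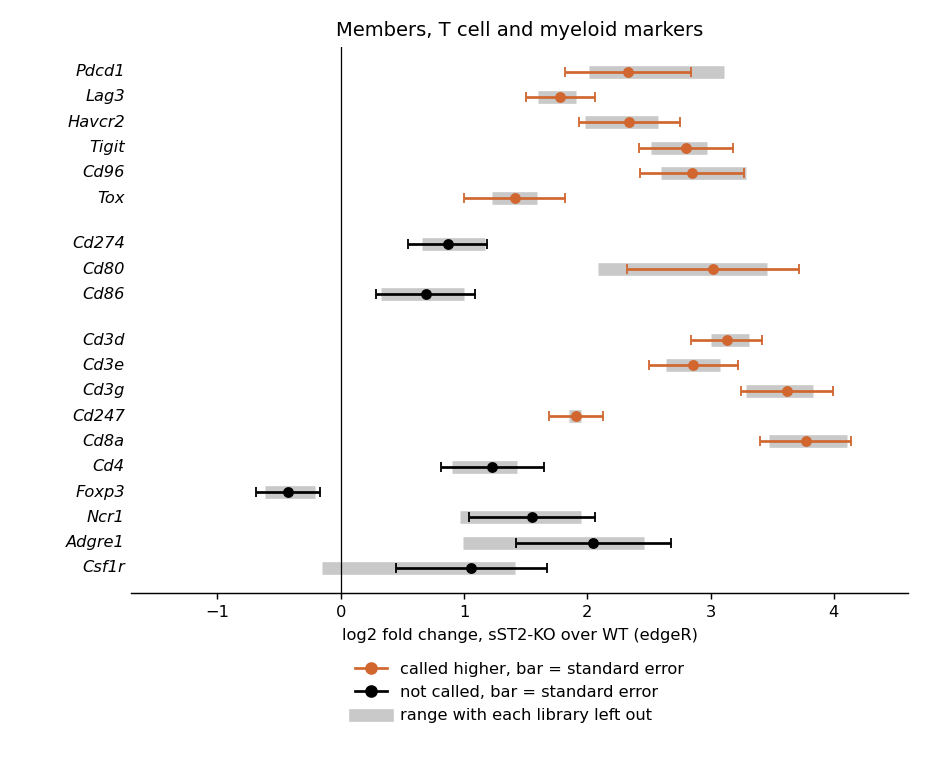
Log2 fold change of sST2-KO over WT from edgeR for the 9 members tested and for 10 marker genes, with its standard error as a thin bar and the range with each library left out as a grey bar. Genes called higher are orange. All 9 members lie right of 0 over the whole grey bar, Cd8a lies furthest right at 3.77, and Foxp3 lies at -0.43.

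The receptors are carried by lymphocytes, and lymphocyte markers moved with the genotype too. In bulk tissue, more cells of a type and more RNA per cell cannot be told apart. The 4 genes of the T cell receptor complex in the table that were used here, Cd3d, Cd3e, Cd3g and Cd247, were all called higher. Their sum was 8.12, 9.61 and 9.86 CPM in WT and 53.0, 54.8 and 70.2 in sST2-KO mice, 6.45 times higher by the means. Cd8a, the coreceptor of cytotoxic T cells, rose by 3.77 on the log2 scale (SE 0.37, adjusted p = 0.009), from 13, 24 and 26 counts in WT to 452, 207 and 350 in sST2-KO mice. Cd4, the coreceptor of helper T cells, had a log2 fold change of 1.23 (SE 0.42, adjusted p = 0.0758), and Foxp3, the regulator that defines regulatory T cells, of -0.43 (SE 0.26, adjusted p = 0.276). Foxp3 had 119 to 164 counts in each WT library and 93 to 166 in each sST2-KO library. In the WT mice it was at 15.3, 11.2 and 19.8 CPM, above the sum of the 4 receptor complex genes in each. How much of the Foxp3 RNA came from regulatory T cells was not tested. The other 4 genes of the regulatory T cell list, which activated T cells of other kinds also express, did not move with Foxp3. Ctla4 (5.35), Il2ra (2.71) and Tnfrsf18 (1.27) were called higher and Ikzf2 was at 0.59 on the log2 scale (adjusted p = 0.269), and the sum of the 5 genes was 17.0 to 25.6 CPM in WT and 61.1 to 74.5 in sST2-KO mice. With a library left out, the call was kept in all 6 fits for Ctla4, in 2 for Il2ra and in 1 for Tnfrsf18. The counts of Pdcd1 amounted to 0.0427, 0.0672 and 0.118 of those of Foxp3 in WT and to 0.446, 0.613 and 0.558 in sST2-KO mice, a ratio also chosen after its values were seen.

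Other cell type lists were summed in the same way. Of 9 NK cell genes, 8 were called higher, and their sum ran from 30.2 to 57.0 CPM in WT and from 275 to 468 in sST2-KO mice. Gzma alone was at 165, 246 and 134 CPM in sST2-KO mice. The list does not separate NK cells from cytotoxic T cells, whose coreceptor gene Cd8a was called higher too. Ncr1, which defines NK cells, had a log2 fold change of 1.55 with an adjusted p of 0.0719. Of 11 macrophage genes 2 were called higher, with sums of 906 to 1248 CPM in WT and 1494, 1515 and 6234 in sST2-KO mice, so sST2-KO replicate 3 stood apart. Adgre1, which encodes the macrophage protein F4/80, had a log2 fold change of 2.05 (adjusted p = 0.0586). The log2 fold change was positive in 10 of the 11 genes, and Cd163 was at -1.26 (adjusted p = 0.127). Of 7 dendritic cell genes tested 3 were called higher, with Itgax at 1.94 (adjusted p = 0.0173) and Flt3 at 0.82 (adjusted p = 0.269). The log2 fold change was positive in 6 of the 7, and Zbtb46 was at -0.97 (adjusted p = 0.099), lower in every sST2-KO mouse. Of those not tested, Cd209a had 15, 10 and 10 counts in WT and 0, 5 and 3 in sST2-KO mice. Ccr7 had 3, 5 and 8 in WT and 12, 15 and 25 in sST2-KO mice. The 3 B cell genes tested did not pass the test. Of 7 neutrophil genes 3 were called higher, with sums of 40.3, 31.9 and 137 CPM in WT and 498, 151 and 731 in sST2-KO mice. All 6 proliferation genes were called higher, with sums of 21.1 to 44.4 CPM in WT and 102 to 179 in sST2-KO mice. Ccl21a, a chemokine of lymph nodes, had 0 counts in all libraries except sST2-KO replicate 2, which had 10.

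The tissue itself also differed between the groups. The sum of 8 brown adipocyte genes, Ucp1 among them, was 8212 to 15511 CPM in WT and 338 to 1796 in sST2-KO mice, so the markers that define BAT were present in all libraries and 7 of the 8 were called lower. The sum of 9 skeletal muscle genes was 1256, 20.8 and 6.41 CPM in WT and 6535, 3515 and 14994 in sST2-KO mice. Mitochondrial genes held 11.8% to 16.6% of the counts in 5 libraries and 6.8% in sST2-KO replicate 3. The part of these differences in the values of the members was not tested.

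**Figure D3:**
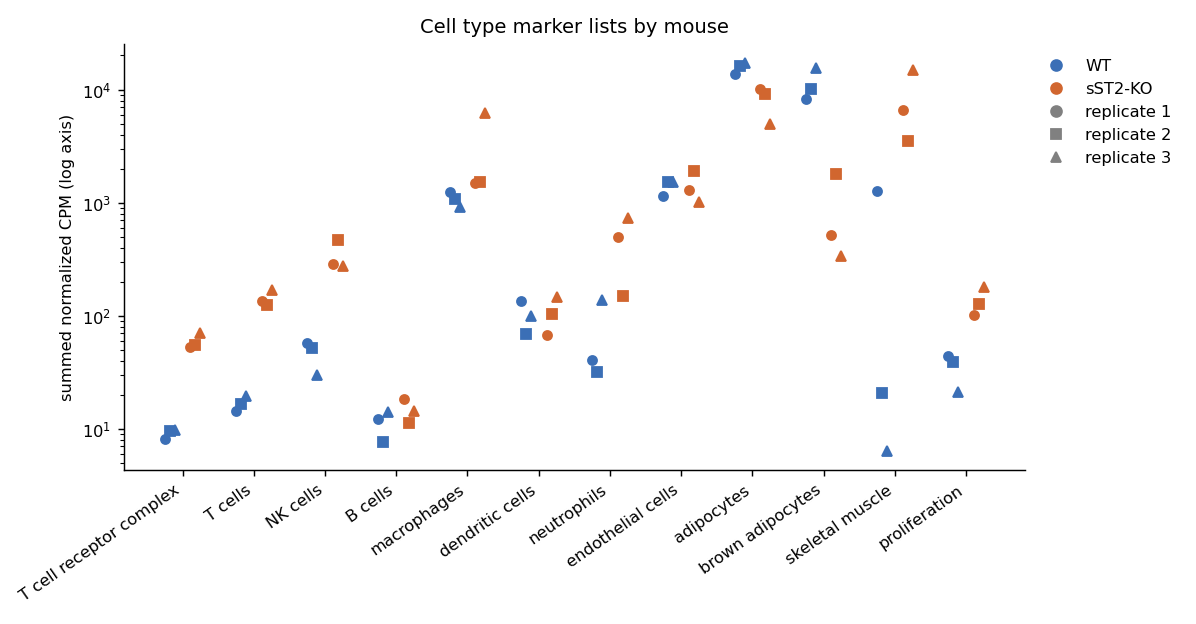
Summed normalized CPM of 12 marker lists in every mouse on a log axis, with WT in blue and sST2-KO in orange. The T cell receptor complex, T cell, NK cell, macrophage, neutrophil, muscle and proliferation sums are higher in all sST2-KO mice. The adipocyte and brown adipocyte sums are lower in all of them, and the B cell, dendritic cell and endothelial cell sums overlap.

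To relate the members to the cells that carry them, each was divided within its library by a marker sum. The receptors and Tox were divided by the 4 genes of the T cell receptor complex and the ligands by the 11 macrophage genes, on counts with 0.5 added. Tested by an exact two-sided permutation test of 3 against 3 mice, none of these 10 values could reach a p under 0.1. Relative to the T cell receptor complex, no receptor was higher in all sST2-KO mice. The difference in log2 ratio was 0.13 for Tigit (exact p = 0.9), 0.15 for Cd96 (exact p = 0.6), -0.19 for Pdcd1 (exact p = 1) and -0.39 for Havcr2 (exact p = 0.3). For Tigit and Cd96 it was -0.03 and -0.01 when Cd3e was the divisor, and for Pdcd1 it was 0.32 without WT replicate 3. With the list of 10 T cell genes as the divisor, the differences were -0.27 for Tigit, -0.25 for Cd96, -0.60 for Pdcd1 (exact p = 0.3) and -0.79 for Havcr2 (exact p = 0.1). Havcr2 was at -0.55 with Cd3e (exact p = 0.1) and at -0.27 with Ptprc, the gene of the leukocyte protein CD45 (exact p = 0.7). The values relative to the T cell receptor complex are smaller than the spread between the WT mice in Pdcd1, Tigit and Cd96, whose SD was 0.88, 0.44 and 0.47.

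Lag3 and Tox were lower relative to the T cell receptor complex in every sST2-KO mouse. The log2 ratio of Lag3 was -1.26, -0.94 and -0.99 in WT and -1.82, -1.57 and -2.51 in sST2-KO mice, a difference of -0.91. That of Tox was -3.75, -4.22 and -4.16 in WT and -5.62, -5.21 and -5.35 in sST2-KO mice, a difference of -1.35. Both had the smallest p the design allows (exact p = 0.1, and 0.25 when adjusted over the 10 ratios). Both genes are also expressed outside T cells, and the difference of Lag3 was -0.79 (exact p = 0.3) when divided by Ptprc, and that of Tox -1.23 (exact p = 0.1).

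Relative to the macrophage list, Cd80 and Pdcd1lg2 were higher in every sST2-KO mouse. The log2 ratio of Cd80 was -9.50, -9.85 and -9.09 in WT and -8.76, -7.35 and -8.05 in sST2-KO mice, a difference of 1.43 (exact p = 0.1, adjusted 0.25). For Pdcd1lg2 the difference was 3.53 (exact p = 0.1, adjusted 0.25), from WT counts of 0 to 2. When Ptprc was the divisor, the difference of Cd80 was 0.04 (exact p = 1) and that of Pdcd1lg2 2.14 (exact p = 0.3). Cd274 and Cd86 differed by -0.28 (exact p = 0.9) and -0.58 (exact p = 0.4), with overlap between the groups, and relative to the dendritic cell list the differences were 0.85 (exact p = 0.1) and 0.55 (exact p = 0.2). With Ptprc as the divisor they were -1.66 and -1.96 (exact p = 0.1 for both), so the direction for these ligands depended on the divisor.

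**Figure D4:**
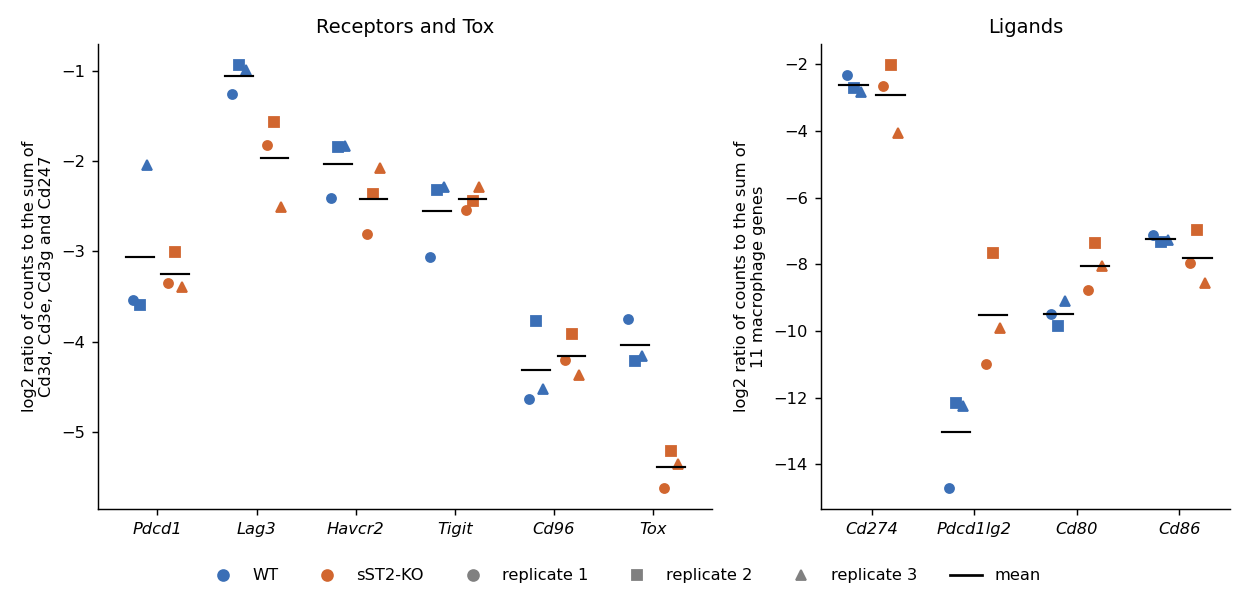
Log2 ratio of each member's counts to the counts of the T cell receptor complex genes (left, receptors and Tox) or of 11 macrophage genes (right, ligands) in every mouse, with the mean of each group as a line. WT is blue and sST2-KO orange. Lag3 and Tox are lower and Cd80 and Pdcd1lg2 higher in all sST2-KO mice, and the other 6 members overlap between the groups.

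The same comparison was made for 106 other genes of the checkpoint pathway, in lists by role. Of the 97 that were tested, 57 were called higher and 2 lower, and the log2 fold changes had a median of 1.57. Without WT replicate 3 the calls were 8 and 0, and without WT replicate 2 they were 25 and 0. Among other inhibitory receptors, 9 of 16 rose and 1, Adora2a, fell. Ctla4, the inhibitory competitor of CD28, rose the most, from 1.87, 0.848 and 0 CPM in WT to 31.7, 46.0 and 40.1 in sST2-KO mice (log2 fold change 5.35, SE 0.71, adjusted p = 0.0122). Klrc1, the NKG2A subunit of NK and cytotoxic T cells, rose by 3.12, Cd244, a receptor for CD48, by 2.70 and Cd160, a receptor for HVEM, by 2.19 on the log2 scale. Adora2a, the adenosine receptor that is also expressed by brown adipocytes, fell by 1.19 on the log2 scale (adjusted p = 0.0455), a call kept in 1 of the 6 fits with a library left out, the fit without sST2-KO replicate 1.

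Among the costimulatory receptors, which strengthen the signal of the antigen receptor, 9 of 11 rose and 0 fell. Icos rose from 0.653, 0.565 and 0.370 CPM in WT to 12.4, 16.1 and 16.7 in sST2-KO mice (log2 fold change 4.78, SE 0.34, adjusted p = 0.00563). Cd28, which shares its ligands with CTLA-4, rose by 3.42 (adjusted p = 0.0122), Tnfrsf9, the gene of 4-1BB, by 3.63 and the adhesion receptor Cd2 by 3.41 on the log2 scale. The median log2 fold change was 2.75 in the costimulatory and 1.84 in the other inhibitory receptor list. Cd27, a receptor of the TNF receptor family on T and NK cells, rose by 3.01.

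Among the other ligands, 5 of 15 were called higher and 0 lower. Cd48, the ligand of CD244, rose by 2.10, Lgals3, the gene of galectin-3, by 1.82, Cd200, whose product restrains myeloid cells, by 1.57 and Fgl2 by 1.62 on the log2 scale. With a library left out, the call was kept in 4 of the 6 fits for Cd48, 3 for Lgals3, 3 for Cd200 and 1 for Fgl2. Ligands of the TIGIT and CD96 axis did not pass the test, with Pvr at 0.50 (adjusted p = 0.253) and Nectin2 at -0.96 (adjusted p = 0.0591), and neither did Lgals9, a ligand of TIM-3, at 0.44 (adjusted p = 0.44). These 3 genes were picked after their values were seen.

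Of 23 regulators of exhaustion and T cell state, 13 rose and 1, Irf4, fell. Lef1 rose by 2.98, Batf by 2.84, Ikzf3 by 2.45 and Bhlhe40 by 2.11 on the log2 scale. All 4 encode nuclear factors, and which cells their RNA came from was not tested. Tcf7, the gene of TCF-1, which marks T cells that keep the capacity to renew, rose by 1.25 (SE 0.34, adjusted p = 0.0403). This call was kept in 1 of the 6 fits with a library left out. The Nr4a genes, nuclear receptors induced by antigen receptor signals, did not pass the test, with Nr4a1 at 0.99, Nr4a2 at -0.08 and Nr4a3 at -1.09 on the log2 scale. Irf4, which brown adipocytes express as well as lymphocytes, was at 147, 225 and 1418 CPM in WT and 53.2, 78.6 and 72.0 in sST2-KO mice, so WT replicate 3 stood far above the others. Without it the log2 fold change was -1.46 in place of -3.14 (adjusted p = 0.063), and the call was kept in 1 of the 6 fits with a library left out, the fit without WT replicate 1. The Nr4a genes were picked after their values were seen.

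Of 16 genes that signal below the receptors, 10 rose and 0 fell. Lck, the kinase that starts T cell receptor signaling, rose by 3.00 (SE 0.23, adjusted p = 0.00596), Zap70, the kinase next in order, by 2.81 and the phosphatase gene Ptpn22 by 2.73 on the log2 scale. Dok2, an adaptor that restrains signaling, rose by 2.42. Ptpn11, the gene of the phosphatase SHP-2 that PD-1 recruits, had a log2 fold change of -0.64 and did not pass the test (adjusted p = 0.0605). Ptpn6, the gene of the phosphatase SHP-1 on the same list, rose by 2.45 (adjusted p = 0.0141). Ptpn11 and Ptpn6 were picked after their values were seen.

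Among 16 cytokines and receptors that induce checkpoint genes, 11 rose and 0 fell. Ifng, which induces PD-L1, had 2, 8 and 1 counts in WT and 71, 242 and 424 in sST2-KO mice, a log2 fold change of 6.04 (SE 0.98, adjusted p = 0.0147). Tnf rose by 2.45, Il12rb2, a chain of the interleukin-12 receptor, by 2.49, Il10, an inhibitory cytokine, by 2.37 and Tgfb1 by 1.28 on the log2 scale. Irf1, a target of interferon-gamma that was picked after its values were seen, did not pass the test, at 0.73 on the log2 scale (adjusted p = 0.124).

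**Figure D5:**
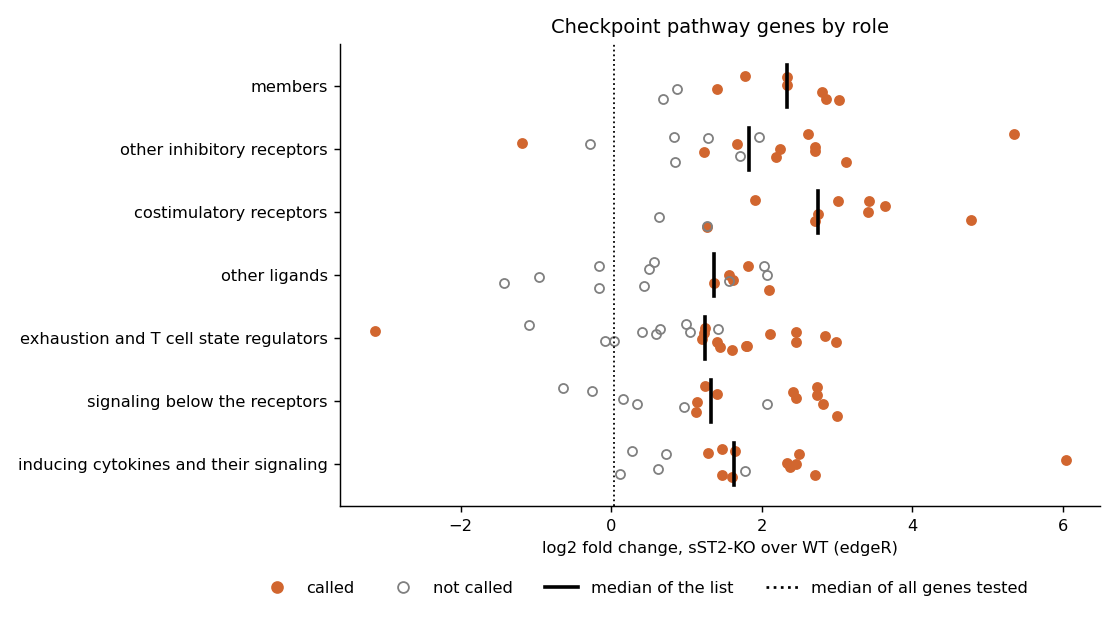
Log2 fold change of sST2-KO over WT for every tested gene of the members and of 6 other pathway lists, with called genes filled (in either direction), the list's median as a black line and the median of all genes tested (0.034) as a dotted line. The medians of the 7 rows lie between 1.25 and 2.75, and the called genes left of 0 are Adora2a and Irf4.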

How the data were processed

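BAT of 3 WT and 3 sST2-KO mice was sequenced from poly-A RNA with a kit that does not mark the strand. The authors aligned the reads to mm39 with HISAT2 2.2.1 (version from the submitters' processing notes, with FastQC 0.12.1) and counted them with htseq-count. The strand setting and the annotation release are not given in the sources used here. The deposited values are raw counts per gene symbol, and 27 symbols had been turned into dates by a spreadsheet.

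The table was fitted as a whole with edgeR 4.0.16 in R 4.3.3 (filterByExpr, TMM, glmQLFit and glmQLFTest) without a covariate, and p-values were adjusted by Benjamini-Hochberg over 14542 genes. Calls took an adjusted p under 0.05 and above 2-fold, the latter being the fold selection of the study's methods, where DESeq2 is the tool. DESeq2 1.42.0 was an alternative here. SE is the absolute log2 fold change over the root of the F statistic. Normalized CPM uses TMM library sizes. Ratios to marker sums (with Cd3e, the T cell list, Csf1r, the dendritic cell list and Ptprc as other divisors) were tested by exact two-sided permutation with 10 relations adjusted together. The steps were tested on simulated data. No library was a copy of another, as chi-square over degrees of freedom was 38.7 to 116 within groups. The labels number the samples within WT and ST2-KO (sST2-KO in the study's text) but do not say that each is a separate mouse. Each was treated as 1, and if any share an animal the p-values measure technical spread.

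The members and all lists were chosen with earlier results of these data known. The genes named are all members, up to 4 called genes per pathway list by smallest p, and Ctla4, Cd28, Icos, Tcf7, Ifng, Il10, Cd3e, Cd4, Cd8a, Foxp3, Ncr1, Adgre1, Itgax, Flt3, Ccl21a and Il1rl1. The others, the genes with overlapping exons included, were chosen after their values were seen. Cd244 was matched by its older symbol. Coordinates and exon lengths are from GENCODE on GRCm39, and promoter windows are from RefSeq, located in GRCm39 by exact match. The T cell receptor constant genes were not used here, and the values of 2 genes that were analyzed are not reported here. Figures were drawn with matplotlib 3.10.9.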

Additional observations from a re-analysis of the deposited data

How the results depend on the processing

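All 118 refits of single members kept the direction of the log2 fold change, of which 32 lost a call and 1 gained one. For Pdcd1lg2, which the expression filter left out, they were compared with its fit without a filter. Its losses, without WT replicate 1, 2 or 3, are among the 32. Of the 7 members called higher, 7 stayed called with total counts, no minimum fold and a 1.5-fold minimum, and 6 with RLE factors, DESeq2 and robust estimation, where Tox was lost. Without a filter the count was 7, with Pdcd1lg2 called and Tox lost. With at least 10 counts required in every library it was 4, of 6 members tested. Leaving out 1 library in turn gave 0 to 7, with 0 without WT replicate 3, 4 without WT replicate 2, and 5 without WT replicate 1 (Cd274 among them), sST2-KO replicate 2 or sST2-KO replicate 3. Without WT replicate 3 edgeR called 58 of all genes tested in place of 2348, and 8 of 10 members had an unadjusted p under 0.05. The share of all genes at that unadjusted p was not counted, so the 8 cannot be set against it. No setting called a member lower. The count of other pathway genes called higher (57) ran from 8 without WT replicate 3 through 25 without WT replicate 2 to 56 with 1 library left out, and from 38 to 65 under the other settings, the block aside. That of genes called lower (2) ran from 0 to 2 with 1 library left out, and was 1 on total counts and 3 without a filter.

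With the replicate number as a block, 0 members and 0 other pathway genes were called in either direction, nor was any of the 14542 genes. That fit has 2 residual degrees of freedom, and 7 of 9 members tested had an unadjusted p under 0.05, all 9 with a positive log2 fold change. The shares of all genes that did so in this fit were not counted, so these values have no background beside them. Deviations of mice with the same number correlated at -0.0583, 0.215 and -0.312. These values were not set against mice with unlike numbers and cannot decide whether the numbers pair the mice.

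Of 90 alternative ratios to marker sums, 11 changed sign. With Cd3e as divisor Tigit was at -0.03 and Cd96 at -0.01, and with the T cell list at -0.27 and -0.25. Cd274 was at 0.27 with Csf1r and 0.85 with the dendritic cell list, and Cd86 at 0.55 with the latter, against -1.66 and -1.96 with Ptprc. With 1 library left out, Pdcd1 ran from -0.46 to 0.32, Tigit from -0.12 to 0.27, Cd96 from -0.01 to 0.42 and Cd274 from -0.72 to 0.29. The cause of these shifts was not tested. Low depth limits Cd96, Tox and Pdcd1lg2, whose WT libraries held 0 to 7 counts each. TMM moved the median of all genes from 0.29 on total counts to 0.034.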
